A study of Mus musculus with 4 samples.

Results

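Podocytes are the epithelial cells that wrap the capillaries of the kidney's filter, the glomerulus. The cluster that the submitters named Podocyte is 1 of 17 clusters of mouse kidney nuclei, taken by that name from the table of cluster averages, and it holds 643538 of the 36068714 UMIs of all 17. UMIs (unique molecular identifiers) count single RNA molecules. The nuclei came from cortex with outer medulla of male C57BL/6 mice, in 4 samples of a droplet assay that reads the 3' ends of transcripts. CT9w samples came from untreated mice, and Cis9w samples from mice given 4 weekly injections of cisplatin at 8 mg/kg, a platinum chemotherapy drug, with kidneys taken 9 weeks after the first injection. Each group had 2 samples, the sources used here give no age for the animals, and no genotype beyond the strain is named.

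Every cluster has 1 column of averages, pooled over its nuclei and over both groups. Podocytes of treated and of untreated mice can therefore not be told apart, and no spread between samples could be computed. Only the replicate-2 samples point to this table in their descriptions, and the sources used here do not say whether the others entered the clusters. In a pooled average, fewer nuclei with a transcript and fewer transcripts per nucleus cannot be told apart. The clusters were formed from the same genes that are described here, so a difference between podocytes and the other clusters is a description and carries no test.

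Podocytes stand on the glomerular basement membrane with interlocking extensions, the foot processes, whose actin skeleton holds their shape. A zipper of adhesion proteins between neighbouring foot processes, the slit diaphragm, is the last layer of the filter, and its loss lets protein into the urine. Mature podocytes rarely divide. They keep transcription factors such as WT1 and LMX1B and secrete VEGF-A, on which the glomerular endothelium depends.

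A level below is the number of normalised UMIs per nucleus. In podocytes 1 UMI over the whole pool is worth 0.00312, and 15480 genes had at least 1 UMI. The UMIs per cluster ranged from 254460 in the cluster named mixed-2 to 7425098 in PT-S2/S3. Proximal tubule clusters are named PT, the thick ascending limb TAL, the distal convoluted and connecting tubules DCT and CNT, principal cells PC, intercalated cells IC and endothelial cells EC. The name PT-injury/repair is used here for a cluster whose column of averages is headed only by a cluster number. Intervals are 95% intervals of the UMI sums (exact Poisson for a level, Clopper-Pearson for a ratio of 2 levels) and cover counting error only.

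All 10 genes on the list of podocyte markers were highest in this cluster. The clusters were formed from the same genes and the list was chosen with earlier results known, so this is no test of the cluster's name. Nphs1 encodes nephrin, the adhesion molecule that spans the slit diaphragm. Its podocyte level was 2.34 (749 UMIs, interval 2.17 to 2.51), while the other 16 clusters ran from 0.00165 through a median of 0.00667 to 0.0554 in EC1. Ptpro encodes a receptor tyrosine phosphatase of the podocyte's apical membrane, and its podocyte level was 6.51 (2087 UMIs, interval 6.24 to 6.80). The other clusters ran from 0.00224 through a median of 0.0112 to 0.470 in the immune cells, and the cluster next to the highest was at 0.0431. Wt1 encodes a zinc finger transcription factor, and its podocyte level was 2.60 (834 UMIs, interval 2.43 to 2.79). Elsewhere it ran from 0 in PC, mixed-2 and the immune cells to 0.128 in PT-injury/repair. Podocytes lay above each of the other 16 clusters for these 3 genes and for the other 7 podocyte markers on the list, among them Podxl, Synpo, Thsd7a, Magi2 and Nebl. Summed over the 10 markers, the podocyte level was 142.9, against 0.291 in PT-S3-2 to 6.12 in PT-S1. Magi2 alone gave 110.6 of the podocyte sum, 6.03 of that in PT-S1 and 0.175 of that in PT-S3-2. The sum is thus mostly the level of that gene.

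Among the 12234 genes whose mean level over the 17 clusters reached the median of all genes (0.0107, the floor), 58 had a podocyte level at least 4 times the highest of the other 16 clusters. These are called podocyte-restricted here, and they are 0.474% of the genes at the floor. For this rule and the next ones, 1 podocyte UMI's worth was added to every level. By the same rule the immune cells had 214 restricted genes, IC-A/IC-B 59, TAL 26 and PT-injury/repair 19, and no other cluster had more than 18. The 58 genes had between 39 and 35451 podocyte UMIs, and the highest other cluster held at most 2 UMIs for 4 of them. In 40 of the 58 the lower bound of the ratio's interval was itself at least 4. Only 35 of the 58 reach the floor without the podocyte level, so the other 23 were counted through the cluster in which they are high.

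**Figure D1:**
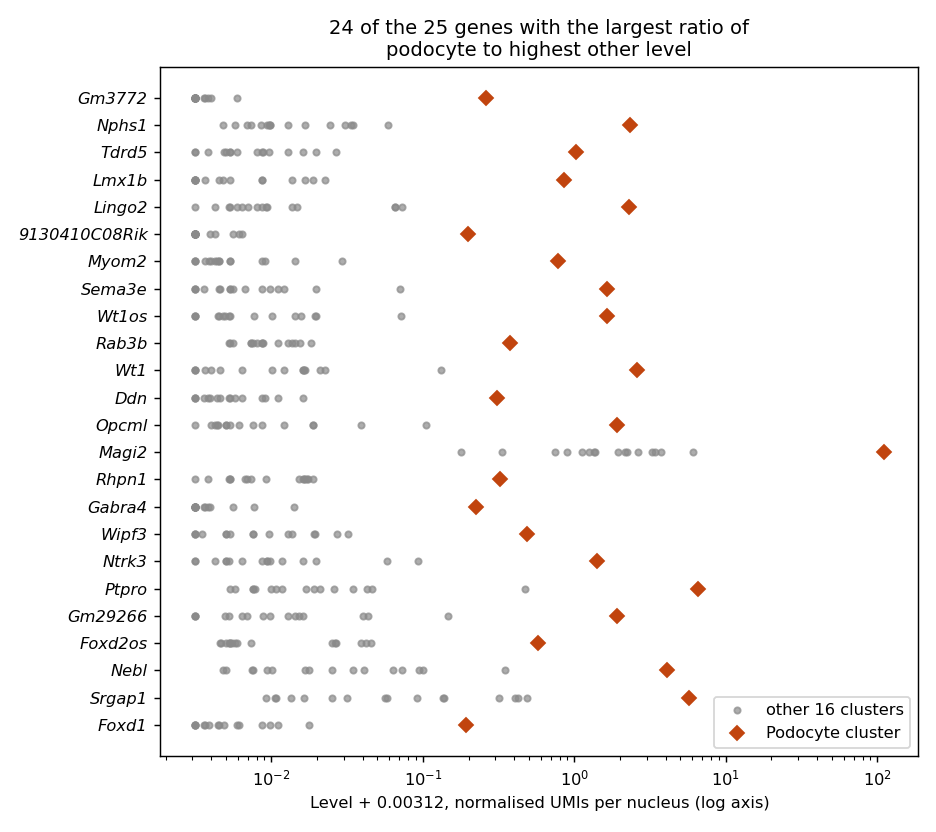
Level of 24 of the 25 genes with the largest ratio of podocyte to highest other level, in normalised UMIs per nucleus plus the worth of 1 podocyte UMI (0.00312), on a log axis. Diamonds are the podocyte cluster and dots the other 16 clusters. By the choice of the genes, all dots lie to the left of the diamond in each of the 24 genes.

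Magi2, which encodes a scaffold protein that binds nephrin from inside the cell, took the largest share of these genes. Its podocyte level was 110.6 (35451 UMIs, interval 109.5 to 111.8). The other 16 clusters ran from 0.175 in PT-S3-2 through a median of 1.65 to 6.03 in PT-S1. The ratio to the highest was 18.3 (18 to 18.7). It made up 5.51% of all podocyte UMIs, against 0.00869% to 0.300% in the other clusters. The 58 restricted genes together made up 9.97% of podocyte UMIs and 0.0791% to 0.409% elsewhere. The 10 genes with the highest podocyte levels held 18.7% of the profile and the first 100 held 29.8%.

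Magi2 (ENSMUSG00000040003) lies on the plus strand at chr5:19227036-20704792 in mm10, a span of 1478 kb. On the other strand, with its start 481 bases away and pointing the opposite way, lies 4921504A21Rik, a noncoding gene that is also restricted to podocytes. Its podocyte level was 0.421 (135 UMIs, interval 0.353 to 0.499), against a highest other level of 0.0522 in PT-S1. PT-S1 was thus the highest other cluster for both genes of the pair. The 250 bases before each of their RefSeq starts (GRCm38.p6, the assembly of mm10) are printed because the pair lies head to head and Magi2 carries the largest share of the restricted UMIs. The first Magi2 start has chr5:19226796-19227045 before it, and the last 10 bases of that window are annotated as the beginning of the first exon. The second Magi2 start has chr5:19907268-19907517, inside an intron of the longer transcripts. The window of 4921504A21Rik is chr5:19226556-19226805 on the minus strand, between both genes. Capitals mark matches to the motifs named next.
Magi2 first start: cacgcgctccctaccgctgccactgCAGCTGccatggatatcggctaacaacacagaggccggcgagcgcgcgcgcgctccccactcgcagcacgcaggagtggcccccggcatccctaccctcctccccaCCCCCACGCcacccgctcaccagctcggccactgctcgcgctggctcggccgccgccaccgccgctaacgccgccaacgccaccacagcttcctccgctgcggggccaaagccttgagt
Magi2 second start: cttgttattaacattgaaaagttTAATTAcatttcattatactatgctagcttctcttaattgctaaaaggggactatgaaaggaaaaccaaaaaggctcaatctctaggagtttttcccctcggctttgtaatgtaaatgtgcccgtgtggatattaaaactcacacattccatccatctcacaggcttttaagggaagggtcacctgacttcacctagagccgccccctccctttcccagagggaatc
4921504A21Rik: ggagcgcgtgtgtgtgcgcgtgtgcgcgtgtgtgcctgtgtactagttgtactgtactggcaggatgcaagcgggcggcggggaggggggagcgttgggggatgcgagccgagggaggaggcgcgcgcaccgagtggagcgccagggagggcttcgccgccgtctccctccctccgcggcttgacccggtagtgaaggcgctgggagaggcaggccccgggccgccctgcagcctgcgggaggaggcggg

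Motifs that resemble known binding sites of podocyte transcription factors were searched as letters on both strands of these windows, with overlaps between motifs allowed. They were GCGTGGGNG for WT1, TAATTA for LMX1B, GTAAACA for forkhead factors and CAGCTG for E-box proteins such as TCF21. The first Magi2 window held the WT1 letters 119 bases before the start and the E-box 225 bases before it. The second held the LMX1B letters 227 bases before its start, and the window of 4921504A21Rik held no match. Windows were found for 41 of the 58 restricted genes, 56 windows in all. The WT1 letters occurred in 1.79% of them and in 1.65% of all 32851 windows of the table. The E-box occurred in 14.3% against 13.0%, the LMX1B letters in 10.7% against 4.84% and the forkhead letters in 1.79% against 3.17%. With 56 windows, 1.79% is a single window, and a match is a run of letters, not a bound site.

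The slit diaphragm list showed 8 of its 15 genes at the floor at least 4 times above the median of the other 16 clusters, a mark called higher here. Over all genes at the floor 483 were higher, which is 3.95%. The floor includes the podocyte level, and 37 of the 483 reached it only through podocytes. Restricted list members of that kind, here and in the lists below, were Ddn, Lmx1b, Sema3e, Rab3b and Cdkn1c. The list counts are therefore a description and lend no support. The list's median log2 ratio to that median was 2.18, where all genes at the floor had a median of -0.05. Besides Magi2 and Nphs1, the restricted members included Ddn. It encodes dendrin, a protein of the slit diaphragm's inner face that is also found in dendrites, and had 0.306 (98 UMIs) against at most 0.0130.

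The remaining 4 higher members of the slit diaphragm list also appeared in another cluster. Kirrel, the nephrin partner NEPH1, had 0.739 (237 UMIs, interval 0.648 to 0.840) and was at 0.704 in Mixed-1, which lies inside the podocyte interval. Fat1, a giant cadherin, had 0.493 in podocytes and 0.470 in PT-injury/repair, again inside the interval (0.419 to 0.576). Fyn, the kinase that phosphorylates nephrin, had 0.917 and was higher still in EC2 at 1.23. Tjp1, the tight junction protein ZO-1, had 1.59 against 1.04 in EC2. Cd2ap, the adaptor between nephrin and actin, was near its level in PT-injury/repair, 1.17 against 1.32. Crb2, a polarity protein of the slit diaphragm, lay below the floor because the other clusters hardly held it. It had 42 UMIs in podocytes (0.131) and at most 0.0110 elsewhere. Trpc6, the calcium channel of the slit diaphragm, had only 6 UMIs (0.0187) and was higher in Mixed-1 at 0.105.

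On the apical membrane, 6 of 8 genes were higher and 1 of them, Ptpro, was restricted. The list's median log2 ratio was 3.25. Podxl encodes podocalyxin, the negatively charged sialomucin that keeps foot processes apart. Its podocyte level was 2.64 (847 UMIs, interval 2.47 to 2.83), with EC2 at 1.11 and EC1 at 1.05 as the next highest and all other clusters at 0.103 or less. Clic5, a chloride channel family protein that associates with ezrin, had 1.36 against 0.453 in EC1. Mme, the endopeptidase neprilysin, had 0.509 and was above that in IC-A/IC-B at 0.828. Pdpn, podoplanin, had 0.112 in podocytes and 0.111 in PT-injury/repair. Ezrin itself (Ezr) sat at the median of the other clusters, 0.253 against 0.250.

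For the actin skeleton of the foot processes, 11 of 33 genes were higher and 3 of those restricted, with a median log2 ratio of 0.76. Against the mean of the other 16 clusters that median was 0.07. Nebl, nebulette, binds actin filaments and had 4.08 (1308 UMIs, interval 3.86 to 4.31) against 0.345 in EC1. Synpo encodes synaptopodin, which bundles actin in foot processes and in dendritic spines. It had 1.80 (578 UMIs), with EC2 at 0.265 and EC1 at 0.251 next. Nes, the intermediate filament nestin, had 0.284 against 0.0631 in mixed-2, where that value is 8 UMIs. Myo1e, a membrane-bound myosin, had 2.18 against 0.898 in EC2, and Inf2, an actin-nucleating formin, 0.150 against 0.0717 in EC1. Actn4, the crosslinker alpha-actinin-4, had 0.502 and Mixed-1 0.711. Anln and Avil, both in the list through inherited disease, had 0 UMIs, which with a limit of 3 UMIs for a count of 0 allows a level of up to 0.00936.

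**Figure D2:**
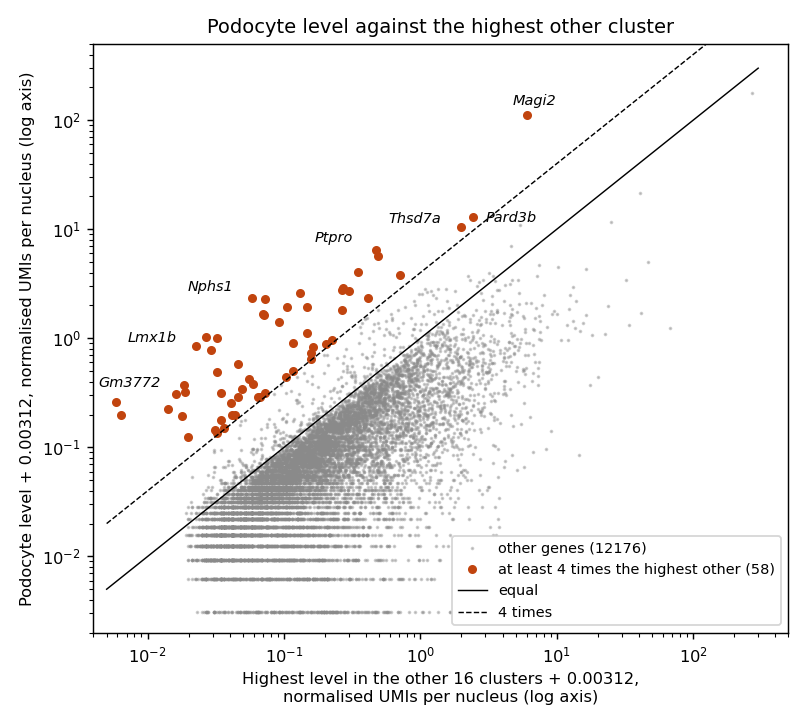
Podocyte level (vertical) against the highest level in the other 16 clusters (horizontal) for the 12234 genes at the floor, in normalised UMIs per nucleus plus 0.00312, both on log axes. The 58 orange points lie on or above the dashed line of 4 times the highest other level, with Magi2 alone at the top at 110.6.

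Of 18 basement membrane genes, 2 were higher and none was restricted, while the median log2 ratio was 0.65 (0.10 against the mean of the others). Collagen IV of the mature glomerular basement membrane is built from the products of Col4a3, Col4a4 and Col4a5. Col4a3 had 3.27 in podocytes (1047 UMIs, interval 3.07 to 3.47), above PT-S3-2 at 2.70. Col4a4 had 2.22 and was higher in CNT at 2.89 and in PC at 2.62. Col4a5 had 0.849 (interval 0.751 to 0.956) and PT-injury/repair 0.816, so counting error does not separate them. Col4a1 and Col4a2, the collagen IV chains of most other basement membranes, had 0.168 each and ranked 13th and 12th of the 17 clusters. Both were highest in Mixed-1, at 1.06 and 1.21. The higher members were Npnt, nephronectin, at 0.967 with PC at 1.63, and Col4a6 at 0.147 with PT-injury/repair at 0.344.

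Of 16 genes for adhesion to that membrane, 2 were higher and the median log2 ratio was 0.85. Itga3, which pairs with integrin beta 1 to bind laminin, had 0.390 against 0.281 in PT-injury/repair. Parva, an actin-binding partner of integrin-linked kinase, had 1.68 against 1.25 in Mixed-1. Itga6, the other laminin-binding alpha chain on the list, lay on the low side at 0.125, with a median of 0.322 elsewhere.

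Among transcription factors, 7 of 15 were higher, 2 of them restricted, and the median log2 ratio was 1.08. Lmx1b, the LIM homeodomain factor mutated in nail-patella syndrome, had 0.849 (272 UMIs, interval 0.751 to 0.956), and its highest other value, 0.0195 in EC1, was 6 UMIs. Wt1 was described above. Dach1 had 11.0 (3524 UMIs), against 5.34 in CNT and 5.11 in DCT+CNT. Tshz2 had 2.03 and was at 7.73 in Mixed-1. Foxc1, a forkhead factor, had 0.0530 (17 UMIs) and 0.0464 in PT-injury/repair. Foxc2 (29 UMIs, 0.0905) and Tcf21 (22 UMIs, 0.0686) were highest in podocytes too, but their mean over the clusters was below the floor. In Mixed-1, with 898063 UMIs in all, Foxc2 had 9 UMIs and Tcf21 19. The ranks of Foxc1 and Tcf21 thus rest on few UMIs. Foxd1, a forkhead factor known from the kidney stroma's progenitors, was not on the list and was restricted at 0.190 against 0.0147.

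Podocyte ligands were higher in 7 of 22 genes, with 2 restricted. The median log2 ratio was 0.64, and it turned to -0.63 when the mean of the other 16 clusters took the place of their median. Vegfa, the endothelial growth factor, had 1.83 (587 UMIs, interval 1.69 to 1.99). The other clusters ran from 0.0905 in EC2 through 0.315 to 0.485 in PT-S2/S3, which left Vegfa just outside the restricted mark. Sema3e, a secreted semaphorin that binds plexin D1 on endothelium, was restricted at 1.65 (529 UMIs) against 0.0671 in PT-injury/repair. Sema3g, of the same family, was restricted at 0.440 against 0.101 in EC1. Efnb1, ephrin-B1, had 0.0905 against 0.0452 in EC2. Angpt1, the Tie2 ligand angiopoietin-1, was below the median of the others at 0.144, with 1.30 in PT-S1.

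Receptors were higher in 11 of 30 genes, restricted in 2 and lower in 1, where lower means that the median of the others was at least 4 times the podocyte level. Over all genes at the floor 72 were lower, or 0.589%. The list's median log2 ratio was 1.31, and it turned to -0.55 against the mean of the others. Thsd7a, a target of autoantibodies in membranous nephropathy, was restricted at 10.6 (3389 UMIs, interval 10.2 to 10.9) with IC-A/IC-B at 1.98 and EC1 at 1.08. Pla2r1, the main autoantigen of that disease in people, had 18 UMIs in podocytes (0.0562) and was at 0.906 in Mixed-1. Ntrk3, the neurotrophin-3 receptor, was restricted at 1.40 against 0.0894 in Mixed-1. Robo2, the Slit receptor that binds nephrin through an adaptor, had 7.05 (2261 UMIs) and was also high in Mixed-1 at 4.59 and in mixed-2 at 1.84. Both natriuretic peptide receptors on the list were higher, Npr3 at 0.574 with EC1 at 0.450 and Npr1 at 0.184 with EC2 at 0.330. Flt1, a VEGF receptor of endothelium, had 0.406 against 6.55 in EC2. The summed endothelial markers, Flt1 among them, were at 1.79 in podocytes, 8.28% of EC2, and their part in the Flt1 level was not tested. Tnfrsf1a, a TNF receptor, was the lower member, with 0 UMIs where the median level would give 5.41.

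**Figure D3:**
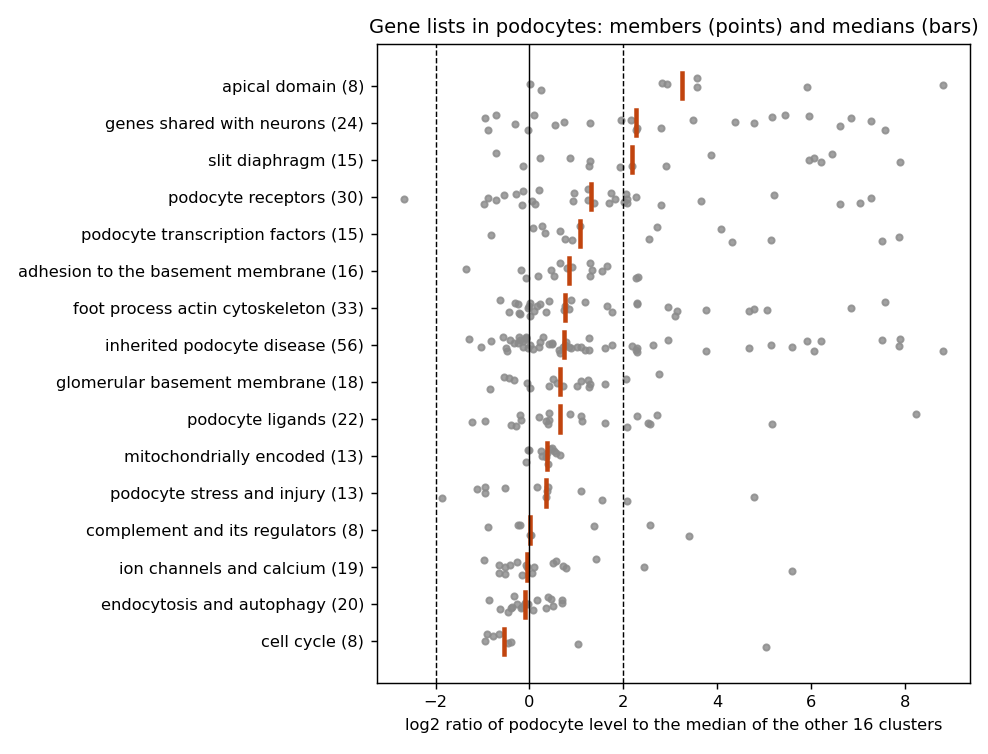
Log2 ratio of the podocyte level to the median of the other 16 clusters for the members of 16 gene lists that reached the floor, with their number in brackets. Dots are genes, bars are list medians and dashed lines mark 4-fold. The apical domain (3.25), genes shared with neurons (2.28) and the slit diaphragm (2.18) have the medians farthest to the right. Against the mean of the other 16 clusters these 3 medians were 2.07, 0.85 and 1.97.

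Of genes known from neurons 14 of 24 were higher and 7 of these restricted. The median log2 ratio was 2.28, and 0.85 against the mean of the others. Podocytes and neurons are both known for long processes and share parts of their cytoskeleton and vesicle machinery. The restricted members were Nebl, Synpo, Ntrk3, Sema3g, Rab3b, Ddn and Nes, so the list overlaps those above. Rab3b and Ddn reached the floor only through podocytes, and 8 of the list's 32 genes were below it. Rab3b, a small GTPase of regulated exocytosis, had 0.371 (119 UMIs) against 0.0152 in TAL. Mapt, the microtubule protein tau, had 2.03 against 0.916 in PT-S2/S3. Nrxn3 and Nlgn1, adhesion proteins of synapses, passed no mark, at 0.0281 and 0.025 with 1.37 in TAL and 1.76 in EC2. Snap25 and Tubb3, which most neurons express, had 0 UMIs. Further genes known from neurons stood among the 25 leading genes without being on the list. Lingo2, a leucine-rich repeat membrane protein, had 2.28 (732 UMIs) against 0.0695 in IC-A/IC-B. Opcml, an adhesion molecule anchored to the outer membrane, had 1.92 against 0.102 in IC-A/IC-B. Gabra4, a GABA-A receptor subunit, had 0.222 against 0.0111 in the immune cells, where that is 2 UMIs (ratio 20.0, interval 5.35 to 168.7).

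Srgap1, a GTPase-activating protein downstream of Slit and Robo, had 5.73 (1837 UMIs) against 0.487 in PT-injury/repair and 0.422 in EC2. Wipf3, a partner of WASP proteins, and Rhpn1, a rhophilin, had 0.487 against 0.0291 in PT-S3-2 and 0.318 against 0.0158 in mixed-2, the latter 2 UMIs. Tdrd5, a Tudor domain protein known from germ cells, had 1.02 (327 UMIs) against 0.0236 in PT-S3-2. Myom2, an M-band protein of striated muscle, had 0.777 against 0.0261 in EC1. The largest ratio of all belonged to Gm3772, a noncoding RNA with 83 UMIs (0.259). Its highest other value rests on 2 UMIs, so the ratio of 93.1 has an interval from 25 to 781.5. The uncharacterised Gm29266 had 1.92 against 0.144 in TAL. Of the 58 restricted genes 47 (81.0%) code for protein, against 91.3% of all genes at the floor. The other 11 are of other types, and 10 of the 11 overlap an annotated gene on the opposite strand. Several of the 11 are annotated as antisense, a type that itself implies a gene on the opposite strand. Many of the protein-coding ones do too, among them Nphs1, Magi2, Lmx1b, Lingo2, Tdrd5 and Opcml, while Wt1, Ptpro and Synpo do not. The share of such overlaps over all genes at the floor was not computed. The sources used here do not say whether the counting used the strand, so reads in such overlaps cannot be assigned. Wt1os had 1.64 against 0.0684 in PT-injury/repair, and its annotated span overlaps Gm11060 but not Wt1. 9130410C08Rik had 0.197 against 0.00326, the latter 1 UMI. Foxd2os, which overlaps no annotated gene, had 0.574 against 0.0425.

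Restricted genes beyond the first 25 were named after their values were seen. Plce1, a phospholipase C mutated in inherited nephrotic syndrome, had 2.69 (862 UMIs) against 0.298 in PT-injury/repair. Pard3b, a polarity protein, had 13.0 (4164 UMIs) and a median of 1.43 elsewhere, with 2.44 in IC-A/IC-B as the highest. Arhgap28, a GTPase-activating protein, had 2.89 against 0.267 in IC-A/IC-B, and Sgip1, an adaptor of endocytosis, 2.80 against 0.262 in Mixed-1. Asic2, an acid-sensing ion channel, had 0.899 against 0.114 in Mixed-1. The brush border peptidases Dpp4 and Enpep, best known from the proximal tubule, were restricted as well. Dpp4 had 2.36 (755 UMIs) against 0.410 in PT-S3-2, and Enpep had 0.964 (309 UMIs) against 0.223 in PT-S2/S3. For both genes all 6 clusters named PT here were thus below the podocyte level. Agrp, the agouti-related peptide, had 0.892 against 0.201 in PC, but its annotated span overlaps other genes, so its reads cannot be told apart from theirs without the strand.

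Of genes behind inherited podocyte disease, 17 of 56 were higher, 7 restricted and 39 on neither side, with a median log2 ratio of 0.73. The restricted ones included Magi2, Ptpro, Plce1, Wt1, Nphs1 and Lmx1b. The nuclear pore gene Nup205 had 0.0374 against a median of 0.0538, and Coq8b, needed for coenzyme Q, 0.0437 against 0.0554. Sgpl1, a lyase of sphingolipids, was lowest in podocytes of all 17 clusters, at 0.0374 (12 UMIs), but missed the lower mark. With so few UMIs, counting error does not separate it from the next lowest clusters.

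Calcium and ion channel genes had a median log2 ratio of -0.06, with 2 of 19 higher. These were Plce1 and P2rx7, an ATP-gated channel at 0.0343 (11 UMIs) and at 0.337 in the immune cells. Among complement genes 2 of 8 were higher (median 0.02, and -0.38 against the mean of the others). They were the membrane regulators Cd55 (0.178, immune cells 0.0939) and Cd59a (0.259, TAL 0.126), and both were highest in podocytes. An antisense gene across Cd55, Gm16083, was restricted at 0.284, so reads of this pair cannot be assigned without the strand. None of 20 genes of endocytosis and autophagy, and none of the 13 mitochondrially encoded genes, passed either mark. Mitochondrially encoded genes were 0.135% of podocyte UMIs and between 0.0660% and 0.251% in the other clusters.

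In this pool of treated and untreated nuclei, 7 of the 20 stress and injury genes had 0 UMIs in podocytes, as did 8988 of all 24468 genes. Of the 20, 13 reached the floor and 2 were higher, Nes and Ccn2, a matricellular growth factor with 12 UMIs (0.0374) and 0.411 in Mixed-1. Spp1, osteopontin, had 0.215 (69 UMIs) and was at 0.795 in PT-injury/repair. Among the genes at 0 UMIs were Havcr1 and Lcn2, markers of tubular injury, and Fos, Atf3, Hmox1 and Cd80. Havcr1 was at 0.346 in PT-injury/repair. The median log2 ratio was 0.36 and changed its sign to -0.77 against the mean of the others and to -0.36 without the floor. In the cell cycle list Cdkn1c was the restricted gene of 8 at the floor. It encodes the cell cycle inhibitor p57, which marks podocytes that have left the cycle, and had 0.312 (100 UMIs) against 0.0316 in mixed-2, which is 4 UMIs. Mki67 had 2 UMIs, Top2a and Cdkn1a 1 each, and Cdk1 and Cdkn2a none. Cdk1 and Cdkn2a also had 0 UMIs in most other clusters, so their zeros do not set podocytes apart. No gene of the cell cycle list at the floor was lower.

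The 72 lower genes rested on few UMIs. In 56 of them podocytes had 0 UMIs, in 70 at most 2, and only 10 had a median elsewhere that would give 10 UMIs or more in podocytes. Esrp1, a splicing factor of epithelial cells, had the most counts to lose among the 10 with the lowest ratios, with 2 UMIs (0.00624) where the median level of 0.0756 would give 24.2. The others of that set were Gm44386, Bcl3, Gm1604a, Cldn7, 1300017J02Rik, Hax1, Rmc1, H2-T24 and Tnfrsf1a, all at 0 UMIs where 5.41 to 7.51 would match the median. Cldn7 encodes a claudin of distal tubules and collecting ducts. Trerf1, named after its value was seen, had more counts behind it, 27 UMIs where 125.8 would match the median.

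Of the 483 higher genes, 216 were highest in podocytes and 267 were higher in another cluster. Podocytes were above all other 16 clusters in 496 genes, 4.05% of those at the floor. For 112 of the 483 higher genes (23.2%) the highest other cluster was Mixed-1, which holds that place in 8.82% of all genes at the floor. EC2 had it in 21.3% against 9.45%, and PT-injury/repair in 9.11% against 4.68%. The immune cells had it in 13.0% against 17.1%. Robo2, Kirrel and Tshz2 are examples from Mixed-1, the cluster in which the markers of mesangial cells (1.75) and of fibroblasts (2.48) were also highest. Restricted and higher genes had long annotated spans, with medians of 80.7 and 81.9 kb, against 29.5 kb for all genes at the floor and 16.6 kb for lower genes.

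**Figure D4:**
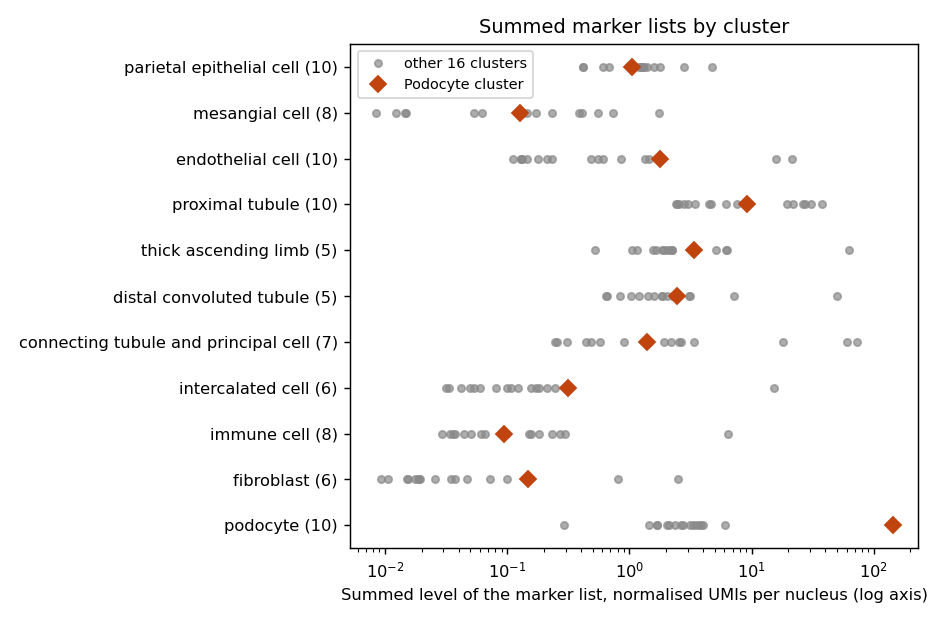
Summed level of each marker list in normalised UMIs per nucleus on a log axis, with the number of genes in brackets. Diamonds are the podocyte cluster and dots the other 16. Podocytes are at 142.9 for their own list, of which Magi2 gave 110.6, far to the right of all other clusters. They are inside the spread of the others for the 10 lists of other cell types.

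Markers of other cell types had UMIs in podocytes, in every list below the cluster where that list was highest. Proximal tubule markers summed to 9.11, the 7th highest of 17 and 24.0% of PT-S1. The other 16 clusters had a median sum of 5.38, and DCT+CNT the lowest sum at 2.40. With the median over the list in place of the sum, podocytes were at 38.6% of the cluster with the highest median, which was not PT-S1. All 10 of these markers had UMIs. Slc34a1, the phosphate transporter, had 1.83 against 12.4 in PT-S1, and Kap, a kidney protein abundant in male mice, had 2.5 against 8.03 in PT-S3-1. Thick ascending limb markers summed to 3.41 (5.38% of TAL) and distal convoluted tubule markers to 2.46 (4.94% of DCT+CNT), where Pvalb was at 0. Markers of the connecting tubule and principal cells summed to 1.40 (1.91% of CNT, Avpr2 at 0) and of intercalated cells to 0.315 (2.05% of IC-A/IC-B), which ranked 2nd of 17. The sources used here do not say how free RNA and doublets were treated, and the part of these transcripts in the podocyte levels was not tested.

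Within the glomerulus, parietal epithelial cells line the capsule and mesangial cells hold the capillaries. Parietal markers summed to 1.06, 22.3% of PT-injury/repair, and ranked 13th of 17. Pax8 (0.362) and Pax2 (0.175) lay below the median of the others, and Cldn1 had 0 UMIs. Ncam1, on this list and on the neuronal one, was higher at 0.393 with PT-injury/repair at 0.598. Mesangial markers summed to 0.128, 7.32% of Mixed-1, with Postn at 0. Endothelial markers summed to 1.79 and ranked 3rd after both endothelial clusters, where the other 16 had a median of 0.361. Of 9 at the floor 5 were higher, with a median log2 ratio of 2.07. Podxl, Clic5, Synpo, Npr1, Npr3 and Tjp1 also had an endothelial cluster as the highest other, and the part of endothelial transcripts in those levels was not tested. Emcn, endomucin, had 0.477 against 6.67 in EC2. Plat, the plasminogen activator tPA, went the other way and was highest in podocytes at 0.325, with EC1 at 0.215. Immune markers summed to 0.0936 (1.47% of the immune cells), with Cd3e at 0. Fibroblast markers summed to 0.147, the 3rd highest of 17, of which Col1a2 gave 44 of 47 UMIs (0.137, with Mixed-1 at 0.570). The defining fibroblast genes Col1a1, Col3a1 and Lum were at 0.

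The profile most like podocytes was that of PT-injury/repair, with a Pearson r of 0.826 over the log2 levels of 12234 genes. EC1 followed at 0.789, mixed-2 at 0.788 and PT-S3-1 at 0.787. PC, at 0.701, and the immune cells, at 0.657, were the least like it. These values describe likeness across genes, which are not independent, and the clusters come from the same libraries and differ in depth. PT-injury/repair stayed first with Spearman's rho (0.833), with a floor at the 75th percentile (0.742) and with a pseudocount of 3 UMIs (0.838). EC1 and Mixed-1 were the highest other cluster for 9 of the 58 restricted genes each (15.5%), IC-A/IC-B for 8 (13.8%) and PT-injury/repair for 7 (12.1%). Over all genes at the floor EC1 held that place in 5.33%, Mixed-1 in 8.82%, IC-A/IC-B in 7.04% and PT-injury/repair in 4.68%. The immune cells held it for 8.62% of the restricted genes, against 17.1% of all. Those of PT-injury/repair included Wt1, Wt1os, Sema3e, Srgap1, Foxd1 and Plce1. In Wt1 its level of 0.128 rested on 105 UMIs and the next cluster was at 0.0195.

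**Figure D5:**
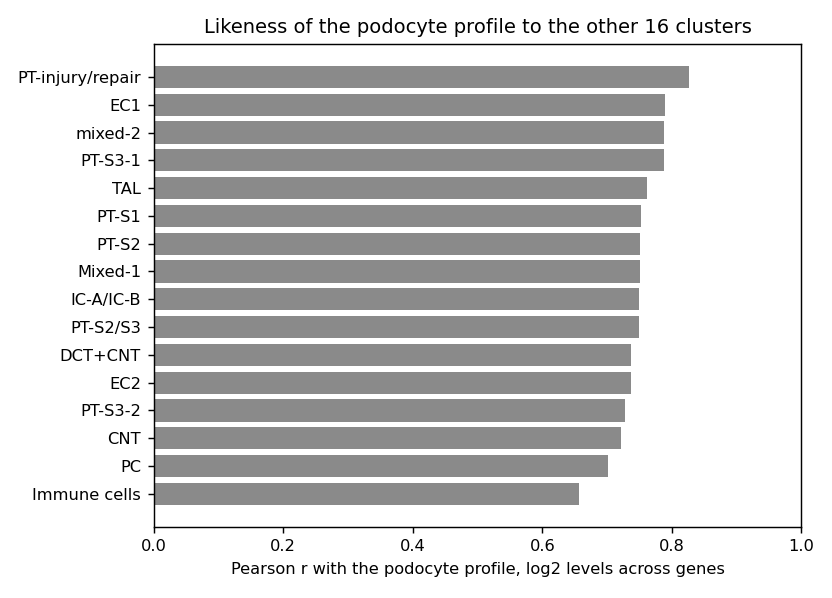
Pearson r between the podocyte profile and each of the other 16 clusters, over log2 levels (plus 0.00312) of 12234 genes. Bars start at 0 and run from 0.826 for PT-injury/repair to 0.657 for the immune cells.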

How the data were processed

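Single nuclei from 4 samples were sequenced in a droplet 3' assay. Reads were handled with Cell Ranger 5.0.1 on build mm10, per the submitters' processing notes. The sources used here do not say how nuclei were filtered or clustered, or how doublets and free RNA were handled. The values used are the 17 columns of averages in the deposited cluster table, a signal in normalised UMIs per nucleus that the authors pooled over each cluster and scaled so that every column sums to 2008. The fold change and p-value columns and the proximal tubule table were not used.

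The table lists 24468 genes. GENCODE M21, an annotation of GRCm38 and so of mm10, held 24449 of their IDs. 16 symbols stand for more than 1 ID. UMI sums were recovered because every value is a whole multiple of its column's step, within 0.1 UMI for 100% of values. A gene at 0 UMIs was given 3 UMIs as its upper limit. Ratios were taken after adding 1 podocyte UMI's worth (0.00312) and only for genes whose mean over 17 clusters reached the median over genes (0.0107). No test was run, since no column belongs to a sample. Python 3.11.15, pandas 2.3.3 and scipy 1.17.1 were used. Recovery of UMI sums and of higher genes was checked on simulated data in which the other 16 clusters shared 1 profile. That simulation cannot check the restricted and lower calls where clusters differ.

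The markers, the 16 pathway lists and the 10 lists of other cell types were chosen with earlier results of these data known, and 2 list genes were not found in the table. The genes named are the 25 with the largest ratio to the highest other cluster, the 10 with the lowest ratio to the median, list members past a 4-fold mark with up to 5 others per list, and the cell type markers. Others are named for their values or their known role, after the values were seen. The motifs, the windows before the starts and the pairs of neighbours were also chosen after the values were seen. Some genes that these rules name are not reported here. Alternatives changed the fold, the pseudocount, the floor, the comparator and the scaling.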

Additional observations from a re-analysis of the deposited data

How the results depend on the processing

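Counts moved with the thresholds. With a fold of 2 there were 129 restricted, 1304 higher and 853 lower genes, and with a fold of 8 there were 29, 230 and 4. Without the floor 102 genes were restricted. With the floor at the 75th percentile there were 30 restricted, 269 higher and 3 lower genes. With the floor on the mean of the other 16 clusters, chosen after seeing the data, 35 were restricted, all 35 among the 58. Against the second highest cluster 89 were restricted. Against the mean of the other 16 there were 223 higher and 542 lower genes. With a pseudocount of 3 UMIs 3 genes were lower. In the counts of restricted and higher genes that setting, centring, rescaling without mitochondrially encoded genes and leaving out both mixed clusters stayed within 1.5 times, from 56 to 71 restricted and, where counted, 368 to 498 higher genes.

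The highest likeness was 0.833 with Spearman's rho, 0.742 with the higher floor and 0.838 with the larger pseudocount. Of the 16 lists 5 had a median log2 ratio of at least 1, and 2, the slit diaphragm (1.97) and the apical domain (2.07), had one against the mean of the other 16, where genes shared with neurons had 0.85. Against that mean the medians of ligands (-0.63), receptors (-0.55), stress and injury (-0.77) and complement (-0.38) changed sign, and without the floor that of stress and injury did (-0.36). The proximal tubule share was 24.0% of PT-S1 by sums. By medians over the list it was 38.6% of the cluster with the highest median, a different cluster. The causes were not tested. No paired analysis was possible because no column belongs to a sample. Depth limits low calls: 3 podocyte UMIs are worth 0.00936.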

Other observations

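Restricted genes also lay beside each other. Within 100 kb between starts, 6 pairs held 12 of the 58 genes. Of the 70 genes at the floor near a restricted gene these 12 are 17.1%, where 0.474% of all genes at the floor were restricted. In all 6 pairs the genes lie head to head on opposite strands, with the starts of Gabra4 and Gabrb1 overlapping. Among 14909 pairs of neighbouring genes at the floor 31.5% lie so. The window was chosen after the values were seen and nothing was tested. In 5 of the 6 pairs 1 gene reached the floor only through its podocyte level, so the count of pairs rests on genes admitted by that level. With the floor on the other 16 clusters 1 pair, Magi2 and 4921504A21Rik, remained.

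Wt1os and Wt1 start 19 bases apart on chromosome 2, and PT-injury/repair was the next highest cluster for both. On chromosome 4, 9130410C08Rik and Foxd2os start 6398 bases apart, and Foxd2, the forkhead gene that the latter is named for, had 5 UMIs in podocytes (0.0156). Gabra4 and Gabrb1, which encode subunits of the GABA-A receptor, start 195 bases apart on chromosome 5 with overlapping spans, at 0.222 and 1.11. Rhpn1 and Top1mt, the latter a mitochondrial topoisomerase, start 25480 bases apart on chromosome 15, at 0.318 and 0.337. Magi2 and 4921504A21Rik are another pair. Without the strand of the reads, levels within the overlapping pair cannot be assigned to one gene.

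Genes that sulfate sugar chains appeared among the restricted genes and were named after their values were seen. Hs3st3a1, a heparan sulfate sulfotransferase, had 0.724 (232 UMIs) against 0.155 in TAL, and Chst1, a keratan sulfate sulfotransferase, had 0.175 (56 UMIs) against 0.0313 in Mixed-1. The intervals of their ratios, 3.88 to 5.65 and 3.07 to 10.9, reached below 4. Chst1 reached the floor only through podocytes, and the share of such genes over all genes was not computed. Optn, an autophagy receptor, had 0.493 against 0.114 in DCT+CNT, while none of the 20 genes of the endocytosis and autophagy list passed a mark.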
